A study of Homo sapiens with 3 samples.

Results

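The end of the short arm of chromosome 19 is a stretch of the human genome where genes stand unusually close together. In a list of 17802 regions bound by YBX1 in T24 cells, 588 peaks (3.30% of the list) had their midpoint on chromosome 19 below position 19500000 of the hg19 build, and these 588 are described here. T24 is an established human bladder carcinoma cell line. Cells made to overexpress Flag-tagged YBX1 were lysed, YBX1 was captured with its RNA on anti-Flag beads, and the bound RNA was trimmed with micrococcal nuclease and sequenced. The labels give 3 groups, namely the input RNA taken from the lysate before capture, the YBX1 RIP, and the YBX1 RIP treated with bisulfite to read m5C, with 1 sample in each. All groups carry the Flag-YBX1 construct, and a capture from cells without it is not among the samples. The source label of the bisulfite sample names another cell line than its characteristics label, which gives T24 and was followed. The peaks form 1 deposited list with no replicate and with no height, strand, gene name or read count. No difference below was therefore tested, and the depth behind a peak is unknown. The identity of the cells cannot be checked against marker genes in a list of positions.

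YBX1 is a cold-shock-domain protein that packages mRNA in the cytoplasm, affects its translation and stability, and binds m5C, a methylated cytosine that NSUN2 places in mRNA. In bladder cancer YBX1 is known for holding m5C-bearing transcripts stable. The short arm of chromosome 19 carries many broadly expressed genes, among them DNMT1 (the maintenance DNA methyltransferase) and SMARCA4 (the ATPase of a chromatin remodelling complex). It also carries NOTCH3 (a signalling receptor). Clusters of olfactory receptor and zinc finger genes lie there too, many of them silent or weakly expressed in most cells. A peak in such a list marks a piece of a transcript, often an exon, so that 1 transcript can give a row of peaks. No peak is assigned to a gene here, since the gene annotation used is of another build (GRCh38.p14) and positions were not moved between builds.

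The short-arm end held more peaks than any stretch of its length that it was compared with, none of which overlapped it. From position 0 to the boundary there were 30.2 peaks per Mb, and from the first peak to the last 31.1 per Mb. Counted likewise from first to last peak, the rest of chromosome 19 had 10.4 peaks per Mb, chromosome 17 had 16.99, chromosome 22 had 16.7, and the rest of the autosomes and the X chromosome together had 5.93. The short-arm end thus exceeded this last value by 5.25 times. Peaks covered 1.94% of its sequence, against 0.734% on the rest of chromosome 19 and 0.381% over the rest of the autosomes and X. These spans include centromeres and other sequence without genes.

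When every autosome and the X chromosome were divided from position 0 into back-to-back stretches of 19.5 Mb, 163 stretches held a peak, with a median of 77 peaks. The short-arm end of chromosome 19 ranked 1 with its 588. It was followed by the first stretch of chromosome 1 with 437 peaks, the first of chromosome 17 with 417, and chromosome 9 from 117 to 136.5 Mb with 362. The first stretch of chromosome 1 is also the end of a short arm. Sliding the stretch in steps of 0.5 Mb found at most 494 peaks elsewhere, on chromosome 1 from 8.5 Mb on. Stretches that overlap the short-arm end were left out of this search. The short-arm end thus held 1.35 times as many peaks as the next fixed stretch and 1.19 times as many as the richest sliding one.

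**Figure D1:**
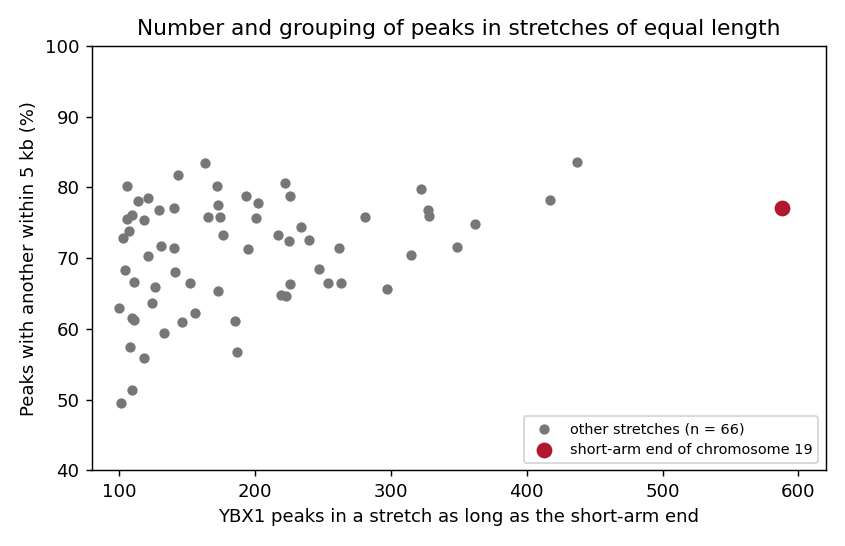
Each point is a stretch of 19.5 Mb with at least 100 YBX1 peaks, with its number of peaks on the x axis and the percentage of these peaks with another peak within 5 kb on the y axis, which starts at 40%. The short-arm end of chromosome 19 (588 peaks, 77.0%) lies farthest to the right, while its height is within the range of the other stretches.

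For its number of genes the short arm was not rich in peaks. Peaks and genes were each assigned to an arm within their own coordinates, by splitting the chromosome at its longest stretch without a peak (4.91 Mb, from 23283322 to 28190763 in hg19) and, in the RefSeq table of GRCh38.p14, at its longest stretch without a protein-coding gene (between ZNF254, a zinc finger gene, and UQCRFS1, a subunit of respiratory complex III). The whole short arm then held 608 peaks, of which 20 lay past the boundary used here, and 648 protein-coding genes, a rate of 93.8 peaks per 100 coding genes. Other autosomes and the X chromosome had 90.7 (16796 peaks and 18523 genes). The long arm of chromosome 19 had 48.6 (390 peaks and 803 genes). Between the arms, the short arm was close to the rate of the other chromosomes, and the long arm had the low rate.

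Zinc finger genes make up part of both arms. Of the coding genes in the table, 84 on the short arm and 171 on the long arm have a ZNF or ZFP symbol, and 20 on the short arm are olfactory receptor genes. Without the zinc finger genes the rate was 108 peaks per 100 coding genes on the short arm, 61.7 on the long arm and 92.1 on other chromosomes. Removing them left the long arm below the other chromosomes and placed the short arm further above. Counted by runs, which are groups of peaks with gaps of at most 5 kb, the short arm had 41.0 runs per 100 coding genes, the long arm 27.1 and the other chromosomes 44.6. On this count the short arm was slightly below the other chromosomes. Gene expression in these cells was not measured here, so its part in these rates was not tested.

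**Figure D2:**
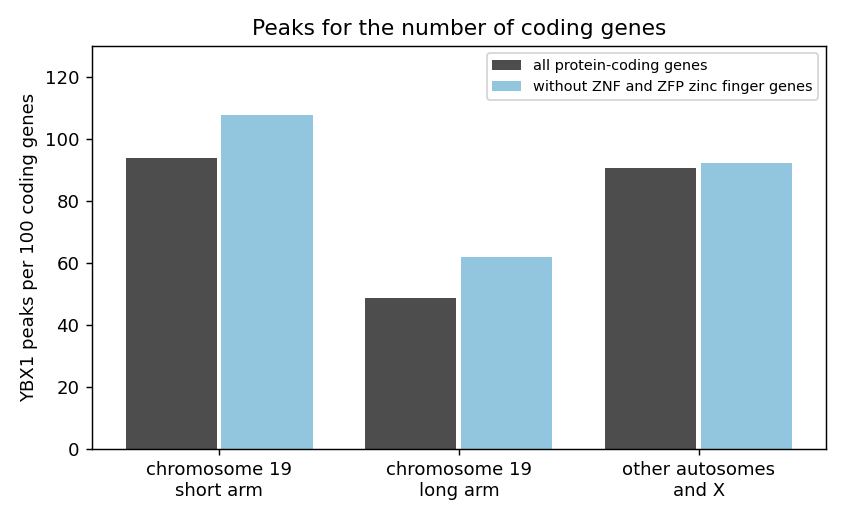
Bars give YBX1 peaks per 100 protein-coding genes (y axis from 0) for the short arm of chromosome 19, its long arm, and the other autosomes with the X chromosome, with all coding genes (dark) and without ZNF and ZFP genes (light). No replicates exist, so no error bars are drawn; the short arm (93.8 and 108) is close to or above the other chromosomes (90.7 and 92.1), and the long arm (48.6 and 61.7) is below both.

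Peaks were spread unevenly over the short-arm end. Over its 19 full windows of 1 Mb the median was 29 peaks, with quartiles of 22.5 and 39 and a range of 1 to 67. The other 1529 windows of the nuclear genome with any peak had a median of 6 and quartiles of 2 and 15. At least 30 peaks were found in 9 of the 19 windows (47.4%), against 146 of the other 1529 (9.55%). These 9 windows lay above 29 peaks, the 90th percentile of the other windows.

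The window from 1 to 2 Mb was the richest, with 67 peaks and 46.4 kb under peaks, and ranked 15 among the 1549 nuclear windows with a peak. The window from 10 to 11 Mb followed with 55 peaks, that from 11 to 12 Mb with 51, that from 3 to 4 Mb with 46, and those from 2 to 3 Mb and from 7 to 8 Mb with 39 each. The 5 richest windows, counting 1 of the last pair, held 43.9% of the 588 peaks. The windows with the fewest peaks lay beside rich ones. There was 1 peak from 8 to 9 Mb, there were 2 from 9 to 10 Mb, and there were 7 from 13 to 14 Mb. On a finer scale, 97 of the 195 windows of 100 kb had no peak at all, and the 20 richest held 46.4% of the peaks. Those from 2.1 to 2.2 Mb, 3.6 to 3.7 Mb, 10.2 to 10.3 Mb and 11.3 to 11.4 Mb had 18 peaks each, more than any other. Windows of 100 kb were not counted elsewhere, so this unevenness may not be particular to the short-arm end.

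**Figure D3:**
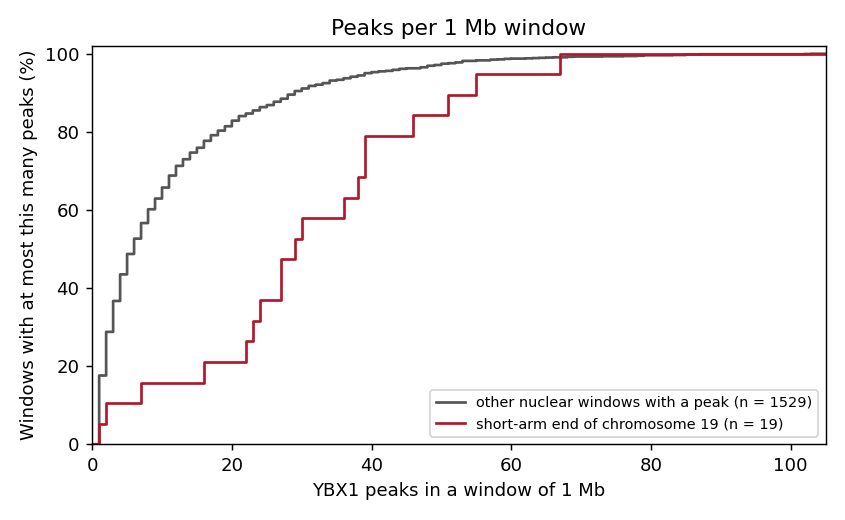
The lines give the percentage of 1 Mb windows (y axis) that hold at most the number of YBX1 peaks on the x axis, for the 19 full windows of the short-arm end of chromosome 19 and for the 1529 other nuclear windows with a peak. The line of the short-arm end lies to the right for most of its course (median 29 against 6), while the highest count elsewhere is 103 and that of the short-arm end 67.

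Long peak-free stretches lay between the dense places. The first peak of the chromosome began at 616365. Within the short-arm end 46 of 587 gaps exceeded 100 kb, and together these took up 13.1 Mb, or 67.2% of the 19.5 Mb. The longest ran from 9272049 to 10225513 (953 kb) and from 8469035 to 9267150 (798 kb), followed by 13252035 to 14016969 (765 kb), 15551206 to 16187212 (636 kb) and 12019859 to 12613353 (593 kb). Gaps over 100 kb were not counted outside. The upper quartile of all gaps was longer there (28183 bp) than on the short-arm end (16019.5 bp). Between 7978865 and 10225513 there were 3 peaks. A peak of 659 bp lay at 8468376 to 8469035, and a pair of 407 and 1273 bp lay at 9267150 to 9267557 and 9270776 to 9272049.

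Peaks far from any other were few. Of the 588, 6 (1.02%, 95% Wilson interval 0.468 to 2.21%) stood more than 100 kb from a peak on both sides, against 4.86% (4.55 to 5.19%) of the 17208 other nuclear peaks. Such intervals, here and below, cover counting error only; they take each peak as its own observation, which peaks of 1 transcript are not. The share of isolated peaks was not counted on chromosomes 17 and 22, so a low share may not be particular to the short-arm end. This share also depends on peaks per Mb (31.1 here, 5.93 on the rest of the autosomes and X), which was not allowed for. The widest of the 6, at 12017030 to 12019859, spanned 2829 bp and had 470 kb without a peak before it and 593 kb after it. It was the third widest peak of the short-arm end. The others were 659 bp (8468376 to 8469035), 400 bp (14876152 to 14876552), 537 bp (17439061 to 17439598), 656 bp (18679153 to 18679809) and 434 bp (19281271 to 19281705) wide.

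At a distance of 5 kb, more peaks of the short-arm end had a neighbour than peaks elsewhere, and at 2 kb the shares could not be separated. A neighbour within 5 kb was present for 453 of the 588 peaks (77.0%, 73.5 to 80.3%), against 68.0% in the whole list and 67.6% (66.9 to 68.3%) of the 17214 peaks outside. Within 2 kb the share was 53.1% (49.02 to 57.1%), an interval that holds the 50.6% outside, and within 10 kb it was 86.9% (83.9 to 89.4%), against 77.5% (76.9 to 78.1%). The rest of chromosome 19 had 64.4% within 5 kb (59.6 to 68.9%), chromosome 17 had 72.7% (70.2 to 74.96%) and chromosome 22 had 73.9% (70.2 to 77.3%). The interval of the short-arm end thus overlaps those of chromosomes 17 and 22. Among the 67 stretches with at least 100 peaks it ranked 16, where the median was 72.4% and the range 49.5 to 83.5%. In a list without strand or gene names, rows of peaks on 1 transcript cannot be told apart from peaks of genes that neighbour each other. From 1 peak to the next the median distance was 3758 bp, against 4818 bp outside, 4079 bp on chromosome 17 and 3662 bp on chromosome 22.

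The 588 peaks fell into 256 runs. Of these, 135 held 1 peak (52.7%, 46.6 to 58.8%), 59 held 2, 55 held 3 to 9, and 7 held 10 or more. Outside the short-arm end 65.5% (64.5 to 66.5%) of 8498 runs were single peaks. The share of single peaks was 59.7% (55.8 to 63.5%) on chromosome 17 and 58.4% (52.3 to 64.2%) on chromosome 22, with intervals that overlap that of the short-arm end. Pairs made up 23.05% (18.3 to 28.6%) of runs, against 17.1% (16.3 to 17.9%) outside. Their share was 22.5% on chromosome 17, 17.9% on chromosome 22 and 21.1% on the rest of chromosome 19. Runs of 3 to 9 peaks made up 21.5% (16.9 to 26.9%) of runs, against 14.9% (14.2 to 15.7%) outside. For these the share was 14.8% on chromosome 17, 21.8% on chromosome 22 and 13.6% on the rest of chromosome 19. Runs of 10 or more made up 2.73% (1.33 to 5.54%), against 2.45% (2.14 to 2.80%). Runs of 10 or more held 15.3% of the peaks, against 19.01% outside. Inside runs the peaks stood further apart, with a median gap of 1578 bp against 1255 bp outside.

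The largest run had 24 peaks over 61.0 kb, from 17263267 to 17324240, and ranked 27 by number of peaks among all runs of the list. Its peaks covered 25.9% of the span, with a median width of 450.5 bp and gaps of 253 to 4825 bp. Widths were uneven along it. Of its first 12 peaks by position 1 was at least 500 bp wide, and of the last 12 there were 8, a split looked at after the widths had been seen. The widest peak, of 1913 bp, was the last (17322327 to 17324240), and no peak followed for 115 kb. This run depended on the joining distance. With gaps of at most 2 kb the largest run had 9 peaks (2108523 to 2121424), and with 10 kb the run from 17256029 to 17324240 had 25.

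The next in size were a pair of runs of 12 peaks that differed in shape. That from 2202557 to 2232502 covered 32.8% of 29.9 kb and had 4 peaks of at least 1000 bp, the last of which spanned 2793 bp (2229709 to 2232502) and held 28.4% of the bases under the run's peaks. That from 3638714 to 3667534 covered 18.3% of 28.8 kb in peaks of 403 to 523 bp, none of them wide. A run of 11 peaks from 18956634 to 18979112 ended with its widest peak, of 1003 bp, and 142 kb followed without a peak. The other run of 11, from 1107676 to 1127883, had its widest peak, of 1191 bp, in place 4.

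Runs of 10 peaks lay from 14258710 to 14280397 and from 11343728 to 11364566. The former covered 47.8% of 21.7 kb and began with a peak of 3811 bp (14258710 to 14262521) that held 36.8% of the run's bases under peaks. The latter covered 30.9% of 20.8 kb, with its widest peak, of 1119 bp, in place 4. Runs of 9 peaks followed from 11130128 to 11147696 and from 2108523 to 2121424, runs of 8 from 16629509 to 16646549 and from 11094647 to 11107251, and a run of 7 from 15346359 to 15358275. This last run tied with 2 shorter ones of 7 peaks, from 10246243 to 10254797 and from 3976010 to 3984491, which covered 48.3% and 54.3% of their spans.

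The widest peak stood at an end of the run in 36 of the 62 runs with 3 or more peaks (58.1%, 45.7 to 69.5%), against 49.8% (47.3 to 52.4%) of 1475 such runs outside. It was the first by position in 17 and the last in 19, so neither end prevailed. The intervals overlap, and without strand the 5′ and 3′ ends of a transcript cannot be told apart. Runs were not matched by number of peaks, on which the share with the widest peak at an end depends.

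**Figure D4:**
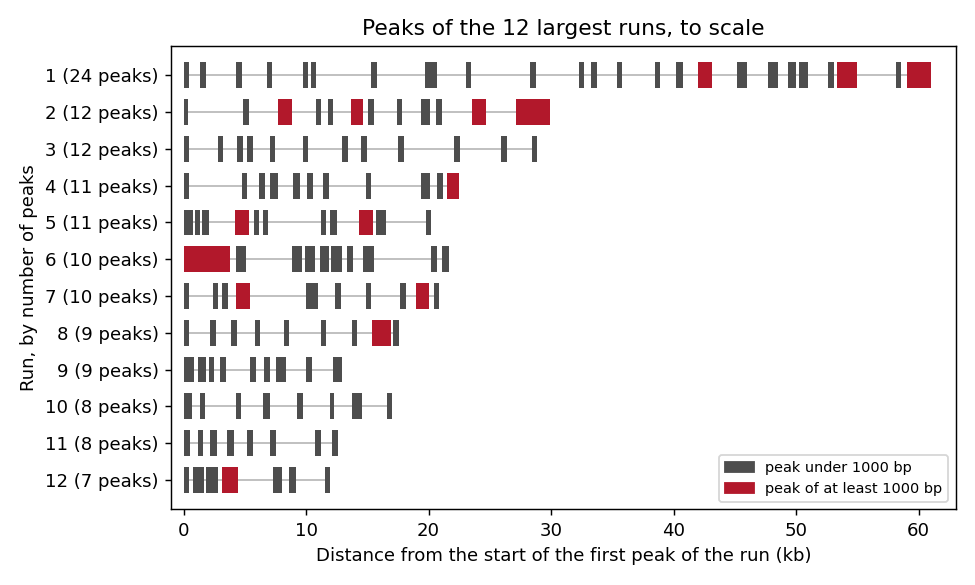
Each line is 1 of the 12 runs with the most YBX1 peaks on the short-arm end of chromosome 19 (of 3 tied runs of 7 peaks, the longest), ordered on the y axis by number of peaks, and each box is a peak drawn to scale at its distance in kb from the start of the run's first peak (x axis), in red where it is at least 1000 bp wide. Run 1 (24 peaks) ends with its widest peak, run 3 (12 peaks) has narrow peaks only, and run 6 (10 peaks) begins with a peak of 3811 bp.

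Widths on the short-arm end were close to those elsewhere. The median was 474.5 bp (95% interval of the median 463 to 488 bp) with quartiles of 426.75 and 630.5 bp, against 470 bp, 424 bp and 631 bp outside. The rest of chromosome 19 had a median of 493 bp (471 to 516 bp), chromosome 17 one of 477 bp and chromosome 22 one of 466 bp. Peaks of at least 1000 bp numbered 56 (9.52%, 7.41 to 12.2%), against 9.80% in the whole list, and held 24.7% of the bases under peaks, against 27.8% outside. The share of wide peaks was 11.2% on the rest of chromosome 19, 11.6% on chromosome 17 and 11.1% on chromosome 22, with intervals that overlap that of the short-arm end. Very wide peaks were few, with 11 (1.87%, 1.05 to 3.32%) of at least 2000 bp, against 2.39% (2.17 to 2.63%) outside. Their share was 3.90% on the rest of chromosome 19, 2.62% on chromosome 17 and 3.58% on chromosome 22. The intervals of all these shares overlap that of the short-arm end.

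Peaks of exactly the narrowest width were scarcer than in the list, while the shares up to 405 and 416 bp were close to those outside. The list has a floor at 400 bp, and exactly this width was found for 22 of the 588 peaks (3.74%, 2.48 to 5.60%), against 6.39% in the whole list and 6.48% (6.12 to 6.86%) outside. The intervals do not overlap. Peaks of at most 405 bp made up 10.9%, against 11.5% outside, and peaks of at most 416 bp 19.6%, against 19.5%. At some larger widths the shares differed again, as at 540 bp (63.8%, against 66.9% outside). The share of exactly 400 bp was 4.39% (2.79 to 6.83%) on the rest of chromosome 19. It was 4.45% (3.48 to 5.67%) on chromosome 17 and 5.63% (4.04 to 7.80%) on chromosome 22. These intervals overlap that of the short-arm end. Among the 67 stretches with at least 100 peaks the short-arm end ranked 59 from the highest share, where the median was 5.34%.

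The widest peak, of 5190 bp, lay at 3462708 to 3467898 and ranked 45 in the whole list, in which the widest spanned 18654 bp. A second peak of 1068 bp began 98 bp after it. The next were the 3811 bp peak at the start of its run (14258710 to 14262521) and the isolated peak of 2829 bp (12017030 to 12019859). Peaks of 2798 bp (2428182 to 2430980) and 2793 bp (2229709 to 2232502) faced each other across 196 kb without a peak, each at the border of its own run. Peaks of 2790 bp (6210497 to 6213287) and 2784 bp (4791811 to 4794595) were almost as wide, the former the first of a run of 6 with 282 kb without a peak before it. The remaining 5 of the 12 widest spanned 1954 to 2632 bp. Of these 12, 9 lay below 5 Mb. With all widths counted, the 1 Mb windows there held 23, 67, 39, 46 and 30 of the 588 peaks. Whether wide peaks were more frequent there was not tested.

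Single peaks were narrower than those in runs. The 135 peaks without a neighbour within 5 kb had a median width of 459 bp, and the 453 others 484 bp, beside 455 and 478 bp outside. Among the single peaks 9 (6.67%, 3.55 to 12.2%) were at least 1000 bp wide, and among the others 47 (10.4%, 7.89 to 13.5%), with intervals that overlap. After the isolated peak of 2829 bp, the widest single peaks were those of 2784 bp (4791811 to 4794595), 2094 bp (1554880 to 1556974), 1770 bp (3610672 to 3612442) and 1481 bp (16243030 to 16244511), the last with 385 kb without a peak after it. The other 5 of the 10 widest single peaks spanned 979 to 1151 bp.

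**Figure D5:**
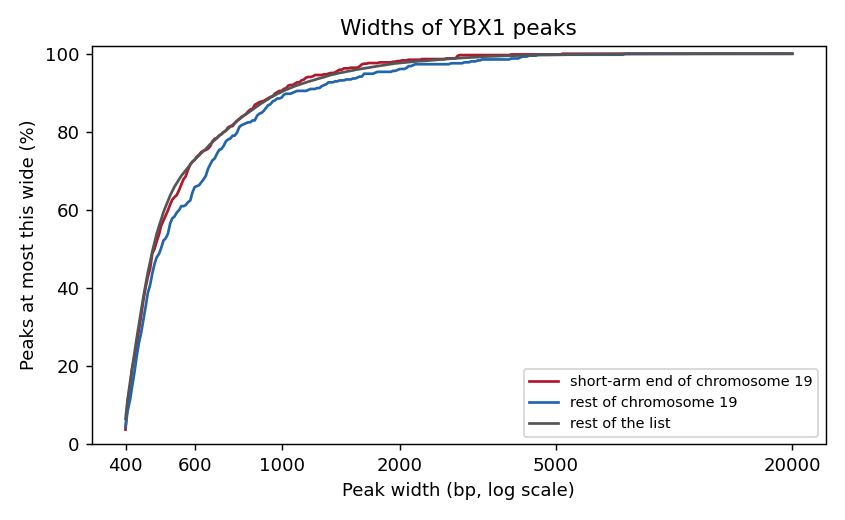
The lines give the percentage of YBX1 peaks (y axis) at most as wide as the value on the x axis (bp, log scale), for the short-arm end of chromosome 19 (588 peaks), the rest of chromosome 19 (410) and the rest of the list (17214). The short-arm end follows the rest of the list closely (medians 474.5 and 470 bp), and the rest of chromosome 19 lies slightly to the right (493 bp).

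Some neighbouring peaks nearly touched. On the short-arm end 37 peaks (6.29%, 4.60 to 8.55%) had a neighbour closer than 200 bp, against 7.62% in the whole list. They formed 19 such gaps, of 82 to 191 bp, and 9 of these had a peak of at least 1000 bp on at least 1 side. The like share was not counted for wider gaps or for close pairs outside, so these 9 have no comparison. Joined, the peak of 5190 bp and its neighbour would span 6356 bp. The list does not say whether such pairs are separate bound pieces or 1 piece divided in peak calling, and merging all of them would leave 569 peaks.

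The boundary at 19500000 did not divide a run. The last peaks inside it lay at 19466490 to 19467241, 19467402 to 19467940 and 19496619 to 19497109, with widths of 751, 538 and 490 bp. The first outside it lay at 19516510 to 19516934, 19538442 to 19538845 and 19546800 to 19547200, with widths of 424, 403 and 400 bp.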

How the data were processed

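The deposited list gives only the chromosome and both end positions of every YBX1 peak, per the file headers, in base pairs and with no measured value. Trimmomatic, MACS2 and build hg19 are named in the submitters' processing notes, with no version or setting. The sources used here do not say how reads were aligned, or which threshold and libraries served in peak calling. Coordinates appear as in the list, whose counting base (0 or 1) is unknown, and widths are end minus start.

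Peaks were placed by midpoint. Runs join peaks whose gap is at most 5 kb. Shares carry Wilson 95% intervals, and the interval of a median comes from binomial order statistics. The RefSeq table of GRCh38.p14 was used for the names and numbers of genes on each arm. The samples have no replicates, so no test was made. Loci were named by rule: the 12 largest runs (longer spans first among ties), the 12 widest peaks, the 10 widest single peaks, the richest and poorest windows, the longest gaps and the peaks beside the boundary. Region, lists and measures were chosen with earlier results of these data known. Sliding stretches, the isolated peaks, the closely spaced pairs and the peaks of exactly 400 bp were added later. The functions were tested on simulated data, where 300 of 300 planted runs were found. These runs were planted by the same 5 kb rule, so this checks the code only. Python 3.11.15, numpy 2.4.6, pandas 2.3.3, scipy 1.17.1 and matplotlib 3.10.9 were used.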

Additional observations from a re-analysis of the deposited data

How the results depend on the processing

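Of 31 alternatives, 21 stayed within 1.5 times of a reported count or rate, or within the interval of a share or median, and 10 did not. A minimum width of 500 bp left 251 peaks, or 12.9 per Mb, and counting each run once gave 13.1 per Mb. Rates per Mb outside were not computed for these settings, which lower the counts there too. Peaks under 500 bp made up 57.3% on the short-arm end and 59.2% outside, and peaks per run were 2.30 and 2.03. The share of wide peaks was 16.0% at 800 bp and 3.57% at 1500 bp, against 15.9% and 4.39% outside. With joining distances of 2 kb and 10 kb, 53.1% and 86.9% of peaks had a neighbour, against 50.6% and 77.5% outside. Both shares move with the distance by construction, but the excess over the peaks outside was within counting error at 2 kb, and the cause was not tested. At 2 kb there were 392 runs, the largest of 9 peaks. With all genes of the table the short arm had 50.8 peaks per 100 genes. Moving the boundary by 1 Mb gave 30.5 and 29.6 peaks per Mb. The 3 alternatives chosen after seeing the data were merging peaks within 200 bp (for 2 results) and another split of the arms. A stricter peak threshold was not run, because the list has no strength column. No paired analysis was possible because there is a single sample per group. Read counts were not analysed here, so how weakly bound a region can be and still be listed is unknown.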
